A study of Homo sapiens with 4 samples.

Results

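The MYC family and its partners were followed in newly made RNA together with PVT1, the long noncoding RNA gene that lies next to MYC. The 8 genes were chosen by name, with earlier results of these data known: MYC, MYCN and MYCL, the partner MAX, the MAX-binding proteins MXI1, MNT and MGA, and PVT1. They are 8 of the 60708 genes in the count table, and 7 of them passed the filter on low counts that left 23321 genes for testing, MYCN being the exception. The cells were of the embryonic kidney line HEK293 and carried a degron on RPB1, the largest subunit of RNA polymerase II. Plasmids encoding RPB1 with a C-terminal domain (CTD) of 52 repeats were transfected transiently, either with the wild-type repeats (52X WT) or with the threonine at position 4 of every repeat replaced by alanine (52X T4A). All libraries had auxin for 48 h, added 48 h after transfection to remove the endogenous RPB1, and 20 min of labeling with 4-thiouridine. No library is of untreated cells without a plasmid, and how far endogenous RPB1 was lost cannot be read from the counts. There were 2 libraries per group, and the labels do not say whether these came from separate cultures, so p-values measure the spread between these libraries only. The comparison asks how the T4A change in the CTD alters transcription of these genes. In TT-seq the labeled RNA is fragmented and purified before sequencing, so introns are read as well as exons.

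MYC, MYCN and MYCL are basic helix-loop-helix leucine zipper transcription factors that bind DNA as dimers with MAX, mostly at E-box motifs, and drive genes of growth, ribosome production and metabolism. MXI1, MNT and MGA also pair with MAX and bind the same motifs, where MXI1 and MNT recruit SIN3 corepressors and MGA is a scaffold of the PRC1.6 complex. MYC RNA and protein are both short-lived, so the RNA depends closely on continued transcription, and MYC is known to be lost early when elongation is blocked. PVT1 is often amplified together with MYC in tumors.

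The E-box is the DNA element that links these proteins, so their own promoters were searched for it. The bases just upstream of RefSeq starts (GRCh38.p14) were searched on both strands for the canonical E-box CACGTG, for its variant CACGCG, which reads as CGCGTG from the opposite strand, and for TTTGGCGC, which reads as GCGCCAAA, a site of E2F factors such as the PRC1.6 member E2F6. Windows of 250 bases were used for 11 starts of 6 of the genes, and MYC and PVT1 were not searched. The E-box CACGTG was found in 1 of the 11, a start of MNT, and in 6.34% of all 35116 windows. The variant was found in 1 of the 11, a start of MGA, against 9.72% of all windows, and the E2F letters in 2 of the 11, at starts of MGA and MYCN, against 0.55%. The shares for both forms of the E-box are thus near the background, and a match describes the sequence and is not evidence of binding. The MNT and MGA windows are shown because these genes had the highest and the lowest fold change among the 7 tested. They are written 5′ to 3′ on the strand of the gene, with the motif in capitals, and end at the base before the start. The MNT window is chr17:2401061-2401310 on the minus strand, with 78.0% G or C and the E-box beginning 193 bases before the start. The first MGA window is chr15:41660155-41660404 on the plus strand, with 65.2% G or C and the variant 21 bases before the start. The second, chr15:41660497-41660746, also on the plus strand, has 66.4% G or C and the E2F letters 65 bases before the start. The span over which MGA was counted begins at chr15:41621134, so both MGA windows lie inside it and not at its listed start.
MNT: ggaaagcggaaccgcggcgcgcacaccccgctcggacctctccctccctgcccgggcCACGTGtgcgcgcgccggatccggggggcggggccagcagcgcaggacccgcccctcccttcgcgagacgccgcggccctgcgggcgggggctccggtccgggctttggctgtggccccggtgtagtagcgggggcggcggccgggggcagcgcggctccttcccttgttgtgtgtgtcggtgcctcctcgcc
MGA, first start: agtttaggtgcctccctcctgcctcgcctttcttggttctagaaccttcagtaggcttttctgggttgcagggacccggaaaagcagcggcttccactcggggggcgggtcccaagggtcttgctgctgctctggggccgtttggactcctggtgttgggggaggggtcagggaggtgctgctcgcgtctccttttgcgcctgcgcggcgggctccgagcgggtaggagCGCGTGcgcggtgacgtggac
MGA, second start: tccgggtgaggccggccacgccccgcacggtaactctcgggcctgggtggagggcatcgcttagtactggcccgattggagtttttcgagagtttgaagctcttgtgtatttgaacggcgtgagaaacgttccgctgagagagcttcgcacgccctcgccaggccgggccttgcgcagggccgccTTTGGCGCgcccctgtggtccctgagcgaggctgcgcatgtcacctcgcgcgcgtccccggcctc

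The libraries held 39249066 and 45605027 counts for 52X WT replicates 1 and 2, and 33853507 and 33188536 counts for 52X T4A replicates 1 and 2. Each gene was counted over its whole span, and 0 of 9191 genes lying inside a gene of their own strand had a count, against 63.7% of 10729 genes lying only inside a gene of the other strand. Strand was therefore used, and reads over more than 1 gene of a strand were not counted. 52X T4A replicate 1 stood apart, with a log2 CPM correlation of 0.979 with its replicate and of 0.975 and 0.974 with the WT libraries, against 0.991 between the WT libraries. POLR2A, which encodes RPB1, stood at 9640 and 8720 normalized CPM in WT and 7492 and 8083 in T4A, but plasmid and endogenous RNA are counted together, so this does not check the labels. Of 10 HEK293 markers 9 passed the filter, with a median log2 fold change of -0.13 and 0 called (NEFL -0.20, KRT18 -0.21). The 12 markers of other cell types summed to between 4.15 and 5.19 CPM in WT and 6.46 and 6.59 in T4A, and 6 passed the filter with a median log2 fold change of 0.64 and 0 called (CD79A 0.47, COL1A1 0.13). Relative to all tested genes that median, 0.64, was 0.21 with at least 10 counts in every library and 1.28 without T4A replicate 2. INS was listed at 0, but 99.2% of its span lies under another gene of its strand. The part of other cells in the results was not tested. CPM are counts scaled to library size with TMM factors, and a change in cell number cannot be told apart from a change in RNA per cell on this scale.

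MYC had by far the highest level of new RNA per length of gene. Its level was 14.6, 14.7, 11.04 and 16.6 CPM per kb of span in 52X WT replicates 1 and 2 and 52X T4A replicates 1 and 2, which placed it above 98.7% of tested genes. PVT1 followed at 3.82, 3.69, 3.67 and 3.17 CPM per kb in the same order, above 92.2% of tested genes. All 4 MYC values lay above all 4 PVT1 values, and the mean of MYC was 3.97 times that of PVT1.

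Below them came a tight group of 4 MAX-network genes. On the same scale the mean levels over the 4 libraries were 1.17 ± 0.07 (SD) for MXI1, 1.17 ± 0.09 for MAX, 1.01 ± 0.21 for MNT and 0.788 ± 0.082 for MGA. Neighbours in this order had overlapping ranges over the 4 libraries. Compared within each library, MGA lay below MNT in all 4, narrowly in 52X WT replicate 2 (0.847 against 0.864). The order of MXI1, MAX and MNT changed between libraries. MYCL, at 0.358 ± 0.022 CPM per kb, lay below all of them, and MYCN, at 0.0326 ± 0.0235, was lower still. MYC made up between 96.8% and 97.6% of the summed level of the 3 MYC paralogs per kb in every library.

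**Figure D1:**
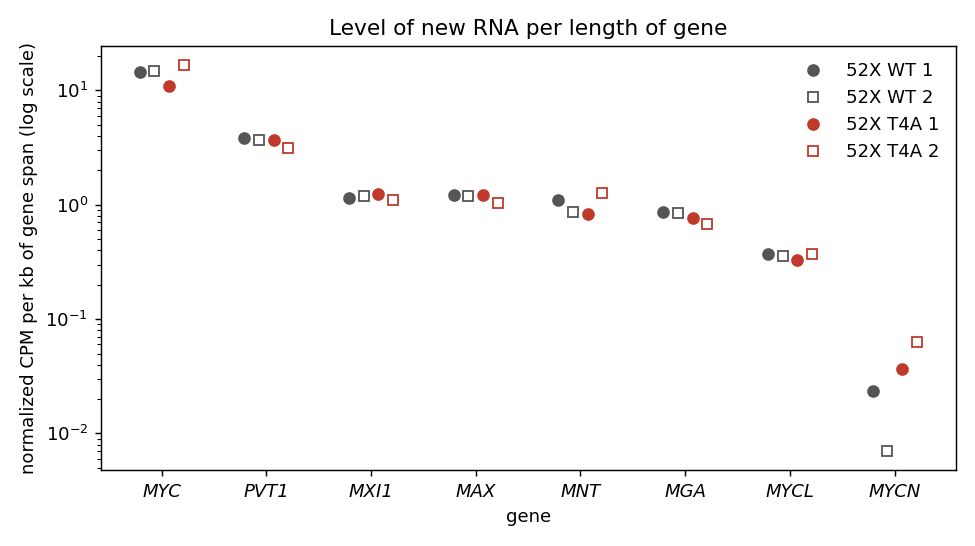
Level of new RNA of the 8 genes in normalized CPM per kb of gene span, on a log axis, with one point per library (grey 52X WT, red 52X T4A, circles replicate 1, squares replicate 2). MYC lay at 11.04 to 16.6 CPM per kb in all 4 libraries, PVT1 at 3.17 to 3.82, and MYCN below 0.063.

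The difference in MYC itself was smaller than the spread of the T4A libraries. The gene (ENSG00000136997.21, GRCh38, chr8:127735434-127742951, plus strand) received 4305 and 4868 counts in 52X WT and 2786 and 4320 in 52X T4A. After scaling this was 110.0 and 110.4 CPM in WT, and 83.0 and 124.9 CPM in T4A replicates 1 and 2. The WT libraries were nearly equal, and the T4A libraries fell on either side of them. The means were 110.2 ± 0.316 CPM in WT and 104.0 ± 29.7 in T4A (SD, n = 2 each), a log2 fold change of -0.08 (SE 0.16, 95% interval -0.46 to 0.29) with an edgeR Benjamini-Hochberg adjusted p of 0.824. The counts themselves had a sampling SD of 2.03% to 2.68% per library when mates of a pair are taken as 1 fragment, far less than the 1.51-fold gap between the T4A libraries. Without T4A replicate 1 the log2 fold change was 0.19 (adjusted p = 0.564), and without T4A replicate 2 it was -0.42 (adjusted p = 0.00779), still under the 1.5-fold limit for a call. In fits without a T4A library, the lone T4A library is assumed to vary like the WT pair, which alone gives the spread.

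PVT1 has a long span and gave the most counts of any lncRNA gene, though where in the span they lie was not tested. It (ENSG00000249859.12, GRCh38, chr8:127794526-128187101, plus strand) starts 51574 bases after the end of MYC and spans 393 kb. With 58757 and 63853 counts in WT and 48385 and 42986 in T4A it ranked 5 among all genes and held between 73.8% and 76.9% of the counts of the 8 genes. Scaled levels were 1501 and 1449 CPM in WT and 1441 and 1243 in T4A replicates 1 and 2. Both T4A libraries lay below both WT libraries, T4A replicate 1 only narrowly. The means were 1475 ± 37.2 and 1342 ± 140 CPM (SD, n = 2 each), with a log2 fold change of -0.14 (SE 0.15, 95% interval -0.47 to 0.20, edgeR adjusted p = 0.676). That value is near the median of -0.14 for the 2420 genes of 100 kb or more with a mean count of at least 1000. All 7 genes listed inside PVT1 on its strand, among them MIR1205, MIR1207 and MIR1208, were at 0, as every gene in such a position was.

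The balance between the neighbours varied more within T4A than between the groups. PVT1 gave 13.6 and 13.1 counts per MYC count in WT, and 17.4 and 9.95 in T4A replicates 1 and 2. The T4A values enclosed both WT values. The mean log2 ratio was 3.74 ± 0.04 in WT and 3.72 ± 0.57 in T4A (SD, n = 2 each), a difference of -0.03 with a two-sided exact permutation p of 1, where 0.333 is the smallest that 2 against 2 libraries allow.

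The order of the 4 libraries seen for MYC was compared with that of other genes. Among 12330 genes with a mean count of at least 200, the smallest distance from its centred log2 CPM was that of OAF, PHLDA3 and TSSK3, with Pearson r of 0.997, 0.999 and 0.995 over 4 libraries. PHLDA3, for example, stood at 22.9 and 22.6 CPM in WT and 16.8 and 26.1 in T4A replicates 1 and 2, so that, as for MYC, the T4A libraries lay on either side of nearly equal WT libraries. For PVT1 the nearest were FAM114A2, ZMYND8 and RERE (r of at least 0.995). With 4 points r is easily high: it exceeded 0.95 for 357 genes with MYC and 409 with PVT1, 2.9% and 3.32% of the genes compared. MAX ranked 89 in likeness to PVT1 (r = 0.965), whereas PVT1 and MYC had r = -0.522.

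The other paralogs gave far fewer counts than MYC, although MYCL lay above 49.1% of tested genes per kb of span. MYCN, a gene of neural crest and neuroblastoma, had 6 and 2 counts in WT and 8 and 14 in T4A, too few to be tested. MYCL, first found in small-cell lung cancer, had 100 and 108 counts in WT and 75 and 88 in T4A, or 2.55, 2.45, 2.23 and 2.55 CPM. T4A replicate 1 was the lowest and T4A replicate 2 lay at the level of WT replicate 1. The log2 fold change of MYCL was -0.07 (SE 0.25, 95% interval -0.64 to 0.50, edgeR adjusted p = 0.915), an interval that reaches past 1.5-fold on the lower side.

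MAX, the shared partner, gave 117, 116, 118 and 100.5 CPM in WT replicates 1 and 2 and T4A replicates 1 and 2. T4A replicate 1 lay just above the WT libraries and T4A replicate 2 below them. Its log2 fold change was -0.09 (SE 0.10, 95% interval -0.32 to 0.14, edgeR adjusted p = 0.681). MXI1, a repressor of the MXD family, stood at 91.9 and 95.9 CPM in WT and 99.7 and 87.4 in T4A. The T4A values lay outside the WT values on both sides, and the log2 fold change was -0.01 (SE 0.10, 95% interval -0.22 to 0.21, adjusted p = 0.983), a sign that turned under 4 of the 12 other settings that kept all libraries.

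MNT, the MAX partner that acts widely as an antagonist of MYC, behaved like MYC within T4A. It stood at 18.8 and 14.7 CPM in WT and at 14.1 and 21.6 in T4A replicates 1 and 2. Again T4A replicate 1 was the lowest and T4A replicate 2 the highest, a 1.53-fold gap. The log2 fold change was 0.09 (SE 0.21, 95% interval -0.39 to 0.58, edgeR adjusted p = 0.854), and it was 0.38 without T4A replicate 1 and -0.26 without T4A replicate 2.

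MGA, the largest protein of the network, had the smallest p of the 7 tested genes. It gave 5112 and 5673 counts in WT and 3879 and 3597 in T4A, or 131 and 129 CPM against 116 and 104. Both T4A libraries lay below both WT libraries. Its log2 fold change was -0.24 (SE 0.09, 95% interval -0.45 to -0.03, edgeR adjusted p = 0.282). MGA spans 152 kb, and among genes with a mean count of at least 1000 those of 100 kb or more had a median log2 fold change of -0.14 (2420 genes), against 0.06 for the 466 under 10 kb.

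**Figure D2:**
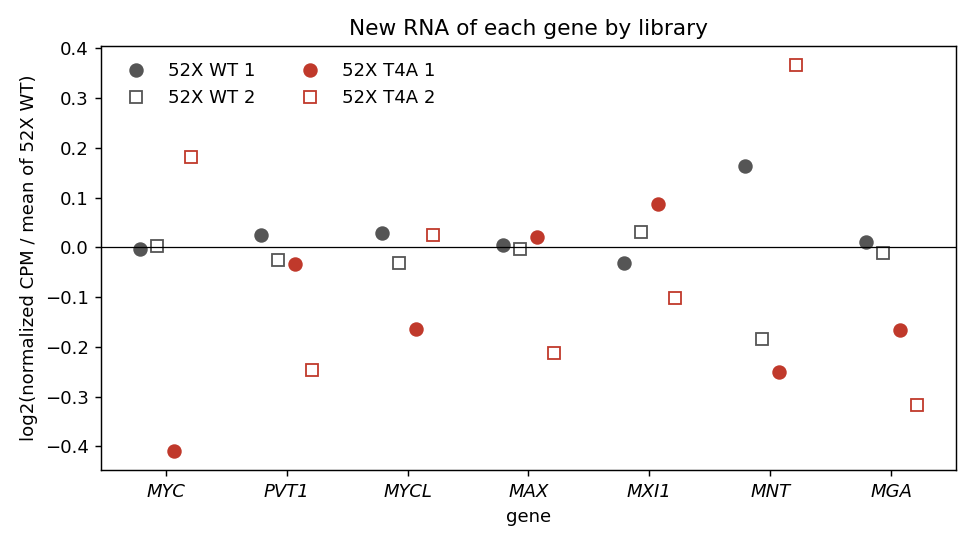
New RNA of the 7 tested genes in each library, as log2 of normalized CPM over the mean of the WT libraries (grey 52X WT, red 52X T4A, circles replicate 1, squares replicate 2). The T4A libraries lay on opposite sides of both WT libraries for MYC and MNT (replicate 2 higher) and for MXI1 and MAX (replicate 1 higher), and both lay below WT for PVT1 and MGA.

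Without T4A replicate 1, the library that stood apart, the log2 fold change was -0.24 for PVT1, -0.31 for MGA, -0.21 for MAX, -0.10 for MXI1 and 0.03 for MYCL, with adjusted p between 0.279 and 0.976, the spread coming from the WT pair alone.

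None of the 7 tested genes was called at an adjusted p below 0.05 and a fold above 1.5. Under that rule 0.00429% of all tested genes were called, which is 1 gene, CHST8, named here after its values were seen (log2 fold change 1.06, SE 0.09, edgeR adjusted p = 0.0311). At an unadjusted edgeR p below 0.05, 1 of the 7 was lower in T4A (MGA) and 0 were higher, against 8.02% and 7.45% of all tested genes. DESeq2 also called 0 of the 7, and 99 genes in all. Both T4A libraries lay below both WT libraries for 2 of the 7, PVT1 and MGA, and above for 0, against 24.7% and 24.8% of all tested genes, so this count is near the background. The log2 fold change was negative for 6 of the 7, with a median of -0.08 against -0.00 over all tested genes. Over the 7467 genes with a mean count of at least 1000, as MYC, PVT1, MAX, MXI1 and MGA have, the median was -0.07. The median of the 7 was thus near that of genes with many counts. The 95% intervals of MYC, PVT1, MAX, MXI1, MNT and MGA all ended inside 1.5-fold in both directions.

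**Figure D3:**
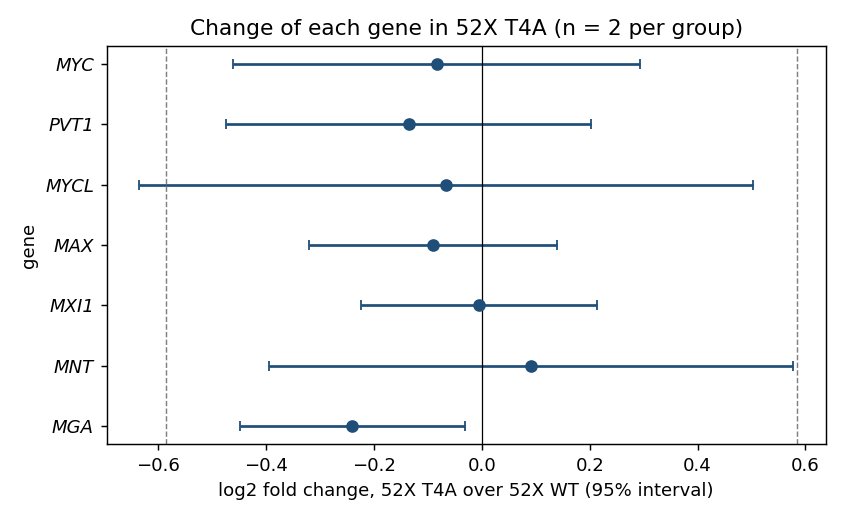
Log2 fold change of the 7 tested genes, 52X T4A over 52X WT, with 95% intervals from the edgeR fit; dashed lines mark 1.5-fold. Only the interval of MGA, -0.45 to -0.03, lay wholly on one side of 0, and only that of MYCL crossed a dashed line.

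The gap between the T4A libraries moved with base composition over all genes. Among the 7 tested genes it was widest for MNT and MYC, and that of MYC was large for its composition. Among genes with a mean count of at least 1000, the median log2 ratio of T4A replicate 2 to replicate 1 was -0.11 where the span held under 40% G or C, 0.11 at 50 to 55% and 0.50 at 55% or more, where 97.6% of 336 genes were higher in replicate 2. The same ratio of WT replicate 2 to replicate 1 had a median of 0.13 in the first class and -0.17 in the last. MNT, with 61.6% G or C, had a gap of 0.62. MYC, with 51.5%, had a gap of 0.59, larger than that of 99.0% of the 685 genes in its class and of 91.2% of the genes under 10 kb. PVT1 (45.9%), MAX (44.7%), MXI1 (40.1%) and MGA (40.4%) lay between -0.24 and -0.15, the side on which most genes of like composition fell.

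With the trend on G and C content taken out of each library, a setting added after the gap was seen, the log2 fold change was -0.35 for MGA (edgeR adjusted p = 0.0127) and -0.23 for PVT1 (adjusted p = 0.0443). Both passed the adjusted p and neither passed 1.5-fold. MNT was at 0.43 (adjusted p = 0.0603) and MYC was at -0.13 (adjusted p = 0.541) in that fit. With a trend on gene length removed instead, a planned setting, MGA was at -0.35 (edgeR adjusted p = 0.142) and PVT1 at -0.30 (adjusted p = 0.27). With the replicate block added to that, they were at -0.35 (adjusted p = 0.108) and -0.30 (adjusted p = 0.06), so neither gene passed there. The part of base composition in these differences was not tested further.

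**Figure D4:**
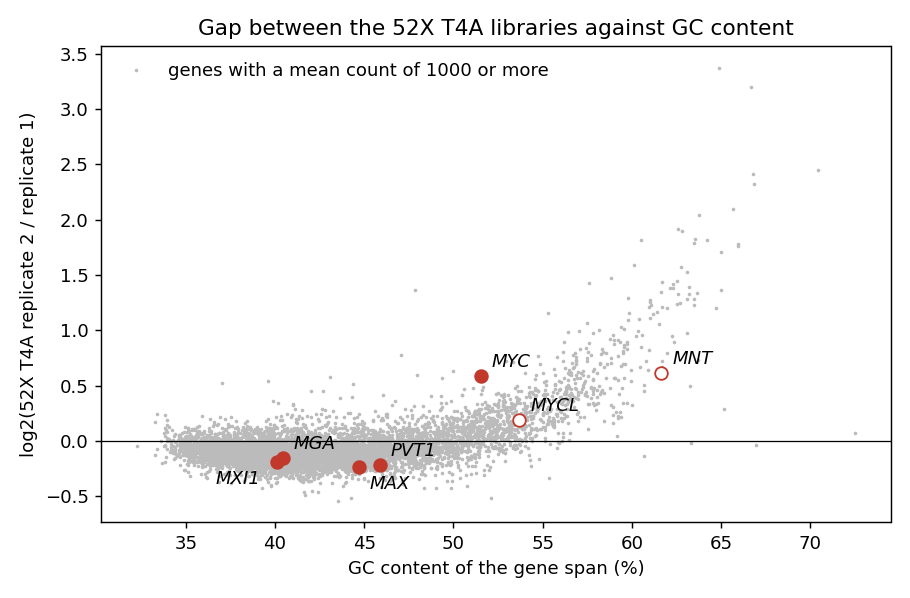
Log2 ratio of 52X T4A replicate 2 to replicate 1 against the G and C content of the gene span in percent. Grey dots are genes with a mean count of 1000 or more and red circles the 7 tested genes, open where the mean count was lower; MYC, at 0.59, lay above most genes of like composition, and MNT, at 0.62, lay in the range of higher G and C content where nearly all genes were above 0.

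Among the tested neighbours of the 8 genes, the difference with the smallest p lay on the strand opposite MYCL. MYCL-AS1, a lncRNA gene of 1354 bases lying wholly inside MYCL on the other strand, had 83 and 123 counts in WT and 376 and 301 in T4A. Both T4A libraries, at 11.2 and 8.71 CPM, lay well above both WT libraries, at 2.12 and 2.79 CPM. The log2 fold change was 2.01 (SE 0.23), and with an edgeR adjusted p of 0.105 it was no call. It kept its direction in the 15 other settings that gave it a value, between 1.82 and 2.21, and was called in 8 of them, 2 of which had a single T4A library and the spread of the WT pair alone. The 8 include that with the G and C trend removed (1.94, adjusted p = 0.00032). It gave more counts than MYCL itself in T4A (376 against 75 and 301 against 88) and in WT replicate 2 (123 against 108), and fewer in WT replicate 1 (83 against 100). MYCL is longer, at 6831 bases. Per kb of span the mean over all libraries was 4.58 CPM for MYCL-AS1 against 0.358 for MYCL. The extent of the RNA beyond the listed 1354 bases was not tested.

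Around MYC and PVT1, 27 other genes lay within 1 Mb, of which 8 passed the filter and 13 were listed at 0. All 8 were lncRNA genes with few counts, at most 942 in sum per library. In 4 of them both T4A libraries were above both WT libraries and in 1 both were below, against 24.8% and 24.7% of all tested genes. T4A replicate 1 was the highest library in 7 of the 8, a count for which no share over all tested genes was taken. PCAT1 stood at 5.47 and 5.56 CPM in WT and 11.5 and 5.87 in T4A (log2 fold change 0.65, edgeR adjusted p = 0.327). CCDC26 stood at 2.35 and 1.68 against 5.78 and 2.37 CPM (1.02, adjusted p = 0.298), and CASC19 had 10 and 10 counts against 36 and 16 (1.66, adjusted p = 0.264). In each of these 3 genes T4A replicate 1 was the highest library. The remaining tested genes were ENSG00000286266 (log2 fold change 1.08, adjusted p = 0.418), LINC00824 (0.74, adjusted p = 0.621), CASC8 (0.42, adjusted p = 0.692) and ENSG00000286034 (-0.48, adjusted p = 0.715). CASC11, on the opposite strand and overlapping MYC, stood at 5.11 and 3.77 CPM in WT and 6.67 and 4.92 in T4A (0.39, adjusted p = 0.46). Low-count genes of 100 kb or more had a median log2 fold change of 0.38 over all such genes tested (2344 genes with a mean count under 1000). CASC11, ENSG00000286266 and ENSG00000286034 have shorter spans, so that value does not cover them.

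The other tested genes overlapping MAX and MGA were not called. CHURC1-FNTB, a read-through gene opposite MAX, stood at 18.2 and 15.3 CPM in WT and 12.7 and 13.5 in T4A. The T4A values were the lower ones (log2 fold change -0.35, edgeR adjusted p = 0.31). FNTB (-0.40, adjusted p = 0.725) and the lncRNA gene ENSG00000259118 (0.43, adjusted p = 0.751), both opposite MAX, and ENSG00000260926 (-0.01, adjusted p = 0.992), opposite MGA, were measured with fewer counts.

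The wider pathway was read from gene lists chosen by function. Of the 6 remaining MAX-network genes, the MXD and MLX families, 0 were called, and the median log2 fold change was -0.15 against -0.00 over all tested genes. MXD1, a MAX-binding repressor, stood at 135 and 152 CPM in WT and 184 and 151 in T4A (0.22, edgeR adjusted p = 0.389). MLX, the partner of the glucose-sensing MLXIP and MLXIPL, stood at 21.0 and 17.9 CPM in WT and 13.05 and 14.8 in T4A (-0.49, adjusted p = 0.236), and its groups did not overlap.

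The 12 genes of the MGA complex had a median of -0.06 with 0 called. Both T4A libraries were above WT for 3 of them and below for 4, near the shares over all tested genes (24.8% and 24.7%). CBX3, an HP1 protein of the complex, went from 84.9 and 87.5 CPM to 91.6 and 98.1 (0.14, edgeR adjusted p = 0.464), and E2F6, its DNA-binding member, from 94.3 and 102 to 109 and 103 CPM (0.11, adjusted p = 0.568). Both thus lay above WT, on the other side from MGA. Of the 10 SIN3 and NCOR corepressor genes 0 were called, with a median of -0.02. SAP18, a SIN3-associated protein, stood at 64.1 and 73.5 CPM in WT and 93.6 and 83.8 in T4A (0.37, adjusted p = 0.224). RBBP4, a histone-binding subunit of the SIN3 complex, stood at 196 and 199.9 CPM in WT and 215 and 187 in T4A (0.02, adjusted p = 0.931), with overlapping groups.

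The 12 cofactor genes of MYC all had a log2 fold change below the median gene, with a median of -0.15, 0 called, and both T4A libraries below both WT libraries for 5 of the 12, against 24.7% of all tested genes. The median relative to all tested genes, -0.15, was -0.06 and -0.25 without WT replicates 1 and 2, -0.06 and -0.23 without T4A replicates 1 and 2, and -0.08 with the G and C trend removed. WDR5, the adaptor that anchors MYC at chromatin, went from 127 and 115 CPM to 91.9 and 112 (-0.25, edgeR adjusted p = 0.329), and HCFC1, a host-cell factor that also binds MYC, from 130 and 104 to 78.9 and 128 (-0.18, adjusted p = 0.685). RUVBL1, an ATPase named after its values were seen, had the lowest value, -0.55 (edgeR adjusted p = 0.15). The 12 turnover genes, which phosphorylate, ubiquitinate or stabilise MYC, had a median of -0.00 with 0 called, and SKP2, a ubiquitin ligase subunit, was at 0.01 (adjusted p = 0.958). CIP2A, which protects MYC from dephosphorylation, was at 0.04 (adjusted p = 0.854). The lowest and highest turnover genes, named after their values were seen, were USP28 at -0.31 (edgeR adjusted p = 0.245) and FBXO32 at 0.51 (adjusted p = 0.16).

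Of 28 classical targets of MYC on the list, 27 were in the table under their names, 24 were tested and 0 were called. Both T4A libraries lay above both WT libraries for 10 of the 24 and below for 2, beside 24.8% and 24.7% of all tested genes, and the median log2 fold change was 0.07. NPM1, a nucleolar chaperone, stood at 737 and 749 CPM in WT and 890 and 849 in T4A (0.23, edgeR adjusted p = 0.394), and NOP56, a box C/D snoRNP protein, at 151 and 139 against 162 and 150 CPM (0.11, adjusted p = 0.597). The groups overlapped for NOP56 and not for NPM1. NME1 and EIF4A1, also on this list, were listed at 0, and 99.7% and 100% of their spans lie under other genes of their strand.

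**Figure D5:**
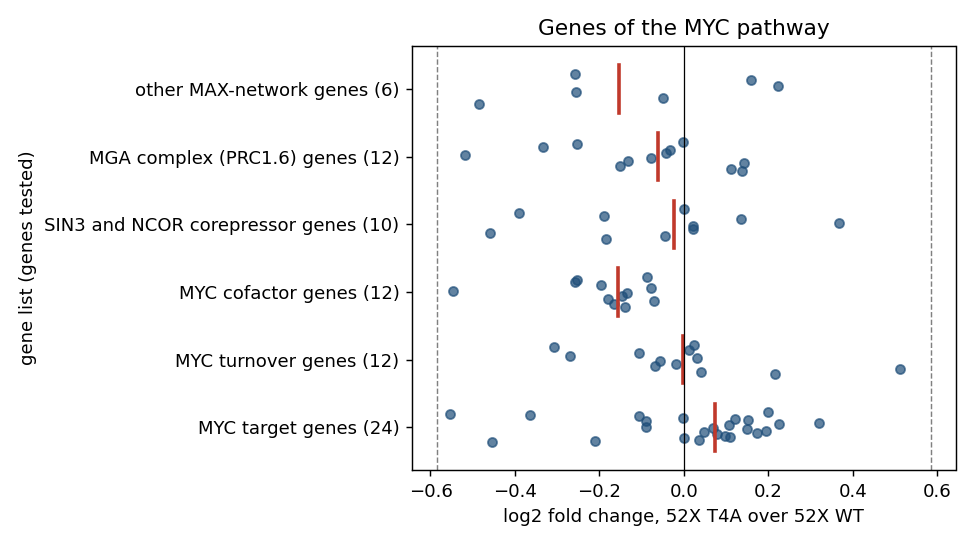
Log2 fold change, 52X T4A over 52X WT, of the tested genes of the 6 pathway lists (blue points, one per gene), with the median of each list as a red bar and dashed lines at 1.5-fold. No gene passed the dashed lines; the cofactor genes had a median of -0.15 and the target genes of 0.07.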

How the data were processed

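TT-seq was available for 2 libraries of 52X WT and 2 of 52X T4A. Raw counts per gene were deposited by the authors as a featureCounts table of alignments named as unique. The submitters' processing notes name GRCh38, cutadapt 4.6, STAR 2.7.11b, Picard, FastQC and deepTools 3.5.6, without roles. The featureCounts version, the strand setting and the annotation release are not given in the sources used here. Of the counts from 1 to 10, between 83.1% and 86.5% were even, so mates of a pair were apparently counted singly. Genes were named by stable ID (58700 of 60708), and positions are those of the table, where 99.979% of 19035 protein-coding genes overlapped their GRCh38 position.

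Groups were compared with the quasi-likelihood test of edgeR 4.0.16 in R 4.3.3, with TMM scaling, filterByExpr and Benjamini-Hochberg adjustment, and tested on simulated data. A gene was called at an adjusted p below 0.05 and a fold above 1.5. Other settings were DESeq2 1.42.0, other scalings and filters, a replicate block, trends on length or on GC content removed, halved counts, and each library left out. Named are the 8 genes, tested genes that overlap them or start within 5 kb on the other strand, tested genes within 1 Mb of MYC or PVT1, the 2 genes of each list with the highest CPM per kb, and the 3 genes nearest in pattern to MYC and to PVT1. The genes, lists and the region were chosen with earlier results of these data known. BOP1 and PECAM1 were not matched by symbol and are not used here. GC content is that of the gene span in GRCh37, and every fold change is relative to the TMM scaling.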

Additional observations from a re-analysis of the deposited data

How the results depend on the processing

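No member was called under any setting. The count of genes changed, 1 in the main setting and 3607 at an unadjusted p below 0.05, was 195 with scaling to mitochondrially encoded genes, 65 without a filter on low counts, 433 with the replicate block, 22 after removing a trend on gene length, 148 after combining that with the replicate block, 527 after removing a trend on GC content and 99 with DESeq2. It ranged from 0 to 2500 when single libraries were left out: 3 and 0 without WT replicates 1 and 2, 195 and 2500 without T4A replicates 1 and 2. The GC trend and the halved counts were added after the data were seen. The causes were not tested. Across genes, the difference between the WT replicates and that between the T4A replicates had a correlation of 0.00498. This value cannot show whether the numbers pair the libraries, because the WT and T4A differences had opposite trends on GC content. Pairing was not tested further. The replicate block changed no call of a member.

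MXI1 reversed from -0.01 to 0.0441 with plain library size, to 0.0035 with at least 10 counts in every library, to 0.0281 with protein-coding genes only and to 0.0161 with halved counts. PVT1 has no value with protein-coding genes only. With single libraries left out the log2 fold change ranged from -0.42 to 0.19 for MYC, from -0.24 to -0.05 for PVT1, from -0.18 to 0.0323 for MYCL, from -0.21 to 0.0068 for MAX, from -0.10 to 0.0715 for MXI1, from -0.26 to 0.38 for MNT and from -0.31 to -0.18 for MGA, and the PVT1 to MYC ratio from -0.43 to 0.38. PVT1 and MGA kept their direction under every setting run. For both genes the T4A libraries all lay below the WT libraries, so leaving out a library could hardly turn the sign. The median of the MAX-network list relative to all tested genes turned to 0.09 without T4A replicate 1 and to 0.03 after removing the GC trend, and that of the target list to -0.01 without the filter. It turned sign in 6 of 15 settings for the turnover list and in 1 each for the MGA complex and corepressor lists. That of the HEK293 markers was -0.01 without T4A replicate 1, from -0.13.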
